A study of Homo sapiens with 12 samples.

Results

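The genes described here encode 6 G protein-coupled receptors that sense small metabolites, FFAR2, FFAR4, HCAR2, HCAR3, GPR84 and SUCNR1, out of 57992 genes in a table of read counts from human induced microglia-like cells. They were chosen by their measured levels and changes between the 5 groups, with results of these data already known, so their levels and calls are given as a description, and no p is given for any of them. All 6 passed the filter on low counts. The cells were differentiated from the pluripotent line H1, and RNA sequencing was carried out on 12 libraries. KO LPS BMS (2 libraries) were MEF2C knockout cells given lipopolysaccharide (LPS), the bacterial cell-wall component sensed through TLR4, together with BMS265246 (BMS), which the series title places under CDK2 inhibition. KO LPS (2 libraries) were MEF2C knockout cells with LPS, and WT LPS (2 libraries) were unedited cells with LPS. KO (3 libraries) and WT (3 libraries) were the knockout and unedited cells with vehicle. No WT culture received BMS, no culture received BMS without LPS, and the sources used here give no doses, times, kind of edit or number of clones.

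These receptors let a cell read the concentration of nutrients and metabolic by-products outside it. FFAR2 responds to short-chain fatty acids such as acetate and propionate, GPR84 to medium-chain and FFAR4 to long-chain fatty acids. HCAR2 responds to niacin and the ketone body beta-hydroxybutyrate, HCAR3 to hydroxylated medium-chain fatty acids, and SUCNR1 to succinate. Most of them couple to inhibitory G proteins, which lower cyclic AMP, and FFAR2, FFAR4 and SUCNR1 can also signal through the Gq class. In macrophages and microglia they are studied as links between metabolism and inflammation: GPR84 and HCAR2 are known as genes induced by endotoxin, and FFAR4 is known for dampening inflammatory signalling in mouse macrophages.

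The libraries held 13888283 to 17639136 counts each, and 3 counts, the limit that a count of 0 allows, corresponded to 0.154 to 0.236 CPM (counts relative to library size, scaled by TMM factors), which covers counting error only. MEF2C, the targeted gene, was still transcribed in the cells labelled KO, at 129 to 136 CPM in KO against 177 to 193 CPM in WT, with no overlap. With LPS it was at 43.7 CPM to 51.6 CPM in all 3 groups. The labels give the tissue as brain, although the cells were made in culture, and the summed level of 14 microglial markers was 8075 to 8634 CPM in KO LPS BMS, 7493 to 8041 CPM in KO LPS, 7891 to 8506 CPM in WT LPS, 7268 to 7539 CPM in KO and 7937 to 8066 CPM in WT. CD68, a lysosomal marker of macrophages, had at most 4 counts in any library of this table. Single markers moved within these sums, with calls as defined below. Of 13 tested, 2 were higher and 6 lower in KO against WT, and 2 higher and 4 lower in WT LPS against WT. In KO LPS against KO, 3 were higher and 4 lower, and in KO LPS BMS against KO LPS, 8 were higher and 4 lower. In bulk RNA, fewer cells of a type and less RNA per cell cannot be told apart.

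The calls of the 6 receptor genes are given beside the share of all genes called in the same comparison. Calls required an adjusted p (Benjamini-Hochberg) under 0.05 in edgeR's quasi-likelihood fit over 16022 genes, and changes are log2 fold changes ± SE from that fit. In WT LPS against WT, 5 of the 6 were called higher and 1 lower, where 59.7% of all genes tested were called. In KO LPS against KO, 4 were called higher and 1 lower, where 44.8% of all genes were called. In KO against WT, 3 were called, all higher, where 21.6% of all genes were called. In KO LPS against WT LPS, 3 were called, all higher, where 30.6% of all genes were called. In the genotype by LPS interaction, which asks whether the LPS change differed between the genotypes, 1 was called, lower, where 12% of all genes were called. In KO LPS BMS against KO LPS, 3 were called, all lower, where 47.8% of all genes were called. Against KO, KO LPS BMS had 3 called higher and 2 lower, where 62.7% of all genes were called, and against WT LPS it had 2 called higher and 3 lower, where 56.4% were called. The choice of the members used these contrasts, so nothing is read from the counts. KO LPS BMS against KO LPS and KO LPS against KO share the KO LPS libraries.

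**Figure D1:**
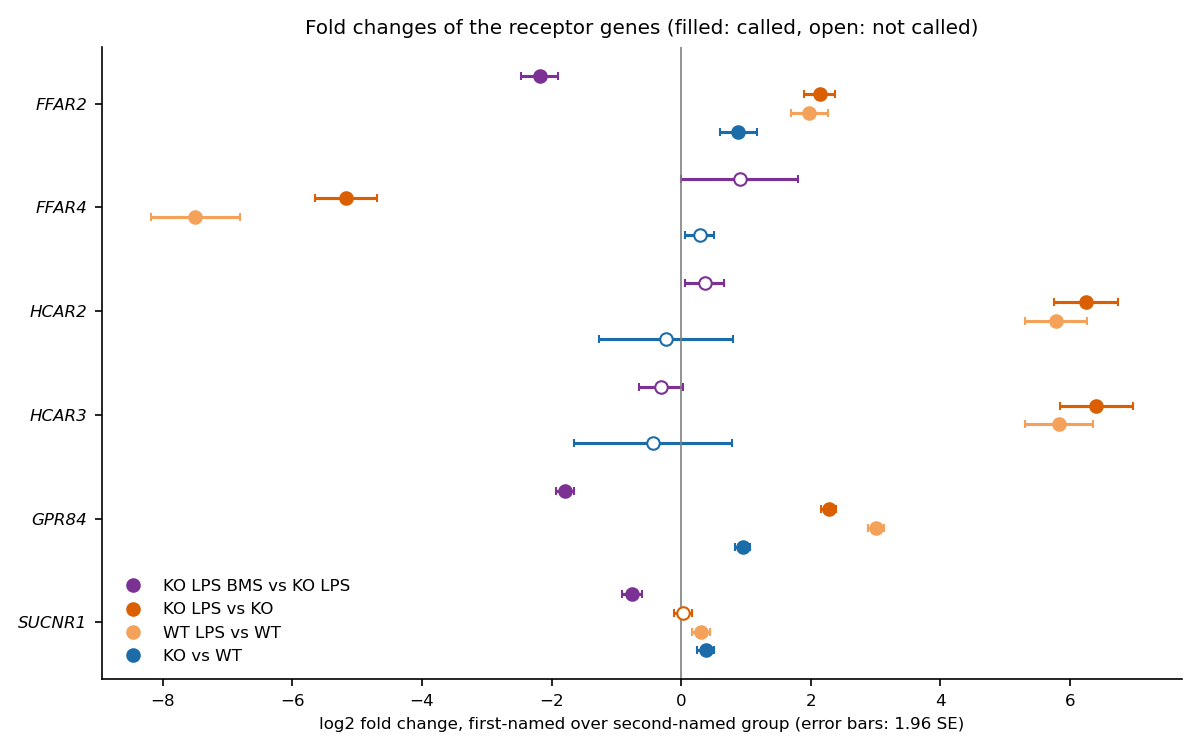
Log2 fold change (x axis, first-named over second-named group) of the 6 receptor genes (y axis) in 4 comparisons, with error bars for 95% intervals from the SE and filled points for calls in the fit over all genes. FFAR2 and GPR84 lie right of 0 with LPS and left of 0 with BMS, HCAR2 and HCAR3 lie far right of 0 with LPS, whereas with BMS they lie at 0.36 and -0.31 (not called), and FFAR4 lies far left of 0 with LPS, where its fitted value in WT LPS rests on 2 counts.

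FFAR2 (ENSG00000126262, GRCh38 chromosome 19, 35443907 to 35451767, plus strand), the short-chain fatty acid receptor, was highest in KO cells with LPS. Its level was 7.49 CPM and 5.73 CPM in KO LPS BMS, 27.7 CPM and 32.0 CPM in KO LPS, 14.3 CPM and 14.6 CPM in WT LPS, 6.45 CPM, 7.72 CPM and 6.13 CPM in KO, and 3.73 CPM, 3.55 CPM and 3.71 CPM in WT. In order of their means, KO LPS stood above WT LPS, WT LPS above KO and KO LPS BMS, whose libraries overlapped, and WT was lowest. FFAR2 rose with LPS by 2.14 ± 0.12 in KO cells and by 1.98 ± 0.14 in WT cells, and the difference between these rises, 0.16 ± 0.19, was not called. It was higher in KO than in WT by 0.89 ± 0.14 with vehicle and by 1.04 ± 0.13 with LPS. With BMS it was lower by 2.19 ± 0.15 than in KO LPS, and its value against KO was -0.05 ± 0.15, not called, and -0.38, called, with scaling by library size only. Its relative FFAR3, which has the same ligands, lies 83422 bases away on the same strand and is described with the other receptors. GPR42, a near-identical copy of FFAR3, lies between them at 70945 bases and had 12 counts in all libraries.

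GPR84 (ENSG00000139572, chromosome 12, 54362445 to 54364487, minus strand), the medium-chain fatty acid receptor, was also highest in KO cells with LPS. It stood at 151 CPM and 141 CPM in KO LPS BMS, 513 CPM and 499 CPM in KO LPS, 462 CPM and 405 CPM in WT LPS, 103 CPM, 107 CPM and 103 CPM in KO, and 53.6 CPM, 56.9 CPM and 51.6 CPM in WT. Ordered by their means as KO LPS, WT LPS, KO LPS BMS, KO and WT, no neighbouring groups overlapped. GPR84 rose with LPS by 2.28 ± 0.06 in KO cells and by 3.00 ± 0.06 in WT cells. The rise was smaller in KO cells by 0.73 on the log2 scale (-0.73 ± 0.09), the only interaction called among the 6. Before LPS it was higher in KO than in WT by 0.95 ± 0.06, and with LPS by 0.22 ± 0.07. This last call was lost with DESeq2, with only the groups compared in the fit, and without WT LPS replicate 2 or KO LPS replicate 1. With BMS, GPR84 was lower by 1.79 ± 0.07 than in KO LPS and stayed above KO by 0.49 ± 0.06.

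**Figure D2:**
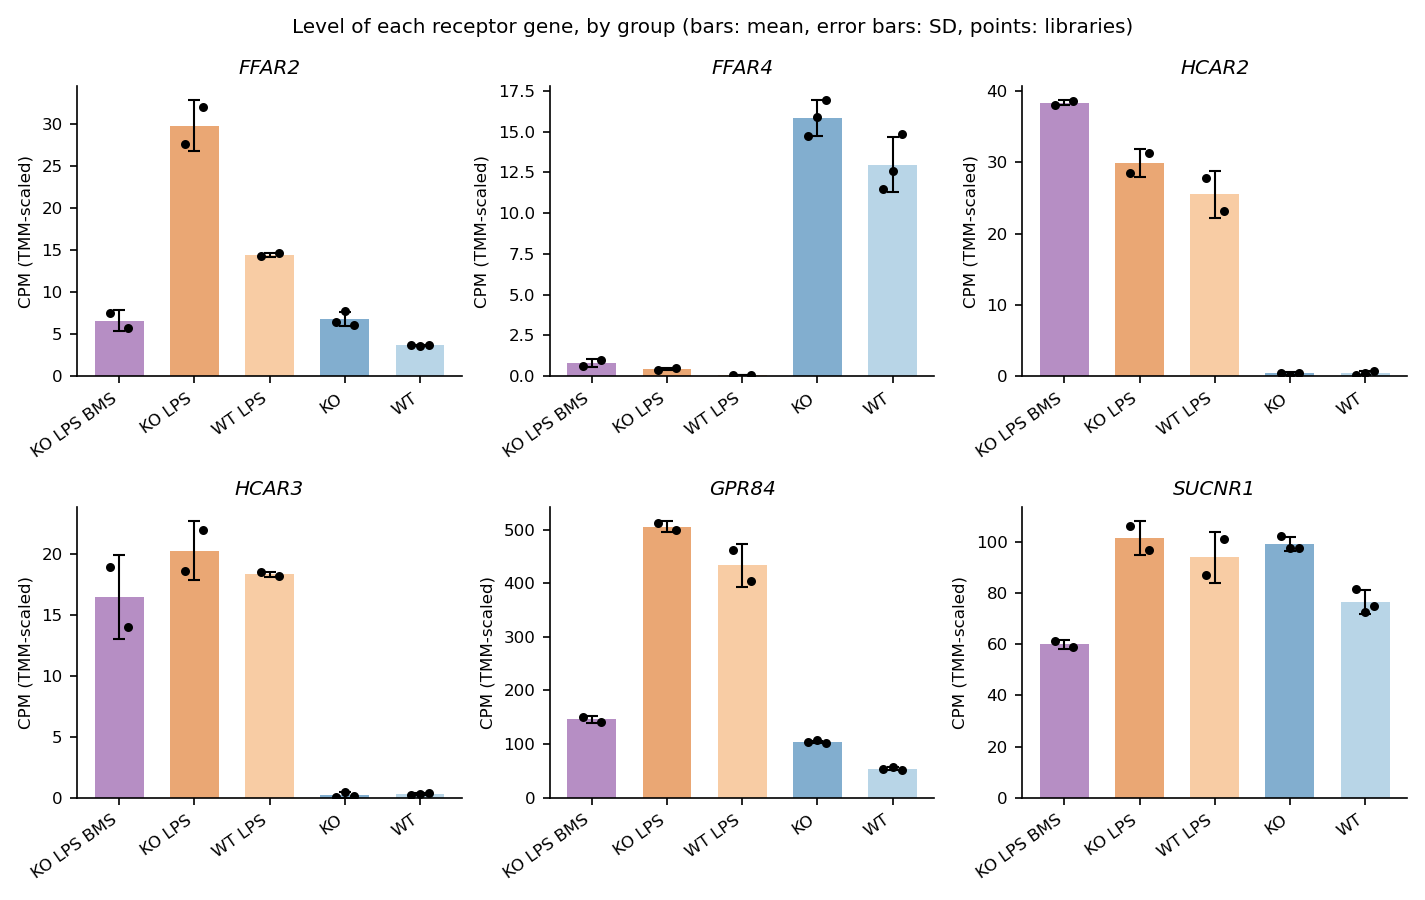
Level in CPM (y axes, each starting at 0) of the 6 receptor genes in the 5 groups (x axes), with bars for the mean, error bars for the SD and points for the libraries. FFAR2 and GPR84 have their highest bars in KO LPS (29.8 and 506 CPM) and much lower ones in KO LPS BMS (6.61 and 146 CPM), HCAR2 and HCAR3 are near 0 without LPS, FFAR4 is near 0 with LPS, and SUCNR1 has its lowest bar in KO LPS BMS (60.1 CPM).

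FFAR4 (ENSG00000186188, chromosome 10, 93566665 to 93604480, plus strand), the long-chain fatty acid receptor, was the member that fell with LPS. Its level was 0.63 CPM and 0.97 CPM in KO LPS BMS, 0.39 CPM and 0.48 CPM in KO LPS, 14.7 CPM, 15.9 CPM and 16.9 CPM in KO, and 11.5 CPM, 12.6 CPM and 14.8 CPM in WT. In WT LPS there was 1 count in each library, which is below the floor of 3 counts. Every library with LPS lay below every library without it. In WT LPS against WT the pooled ratio was 0.00495, with an exact 95% counting interval of 0.000599 to 0.018. In KO LPS against KO it fell by 5.18 on the log2 scale (-5.18 ± 0.24). The libraries of KO LPS, with 6 and 7 counts, lay above those of WT LPS, at a pooled ratio of 6.70 with a counting interval of 1.52 to 61.1, and the fitted difference was called higher, a call that was lost without WT LPS replicate 1, WT LPS replicate 2 or KO LPS replicate 2. In KO LPS BMS the counts were 8 and 15, its change against KO LPS was 0.90 ± 0.46, not called, and it remained below KO by 4.27 on the log2 scale (-4.27 ± 0.22). KO against WT gave 0.29 ± 0.11, not called, with overlapping libraries, although it was called higher with only the groups compared in the fit and without WT replicate 3. RBP4, which overlaps FFAR4 on the opposite strand, had 201 counts in all libraries together, and the sources used here do not say whether the counting used strand.

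HCAR2 (ENSG00000182782, chromosome 12, 122701293 to 122703343) and HCAR3 (ENSG00000255398, chromosome 12, 122714756 to 122716892), both on the minus strand, are near-identical neighbours whose reads cannot always be told apart. Their GENCODE release 29 coding sequences, of 1089 and 1161 bases, differed at 28 of 1089 aligned bases (97.4% identity), and the longest identical run was 192 bases. Of all 50-base windows of the HCAR2 transcript, 35.5% were also present unchanged in HCAR3, against 15.0% of 100-base windows and 4.9% of 150-base windows, and the sources used here give no read length. The coding stretch of 60 bases with the most differences is given as an example of where reads can be told apart. It runs over bases 474 to 533 of either coding sequence, at chr12:122702751-122702810 for HCAR2 and chr12:122716205-122716264 for HCAR3 on GRCh38, and the capitals mark the 7 differing bases.
HCAR2: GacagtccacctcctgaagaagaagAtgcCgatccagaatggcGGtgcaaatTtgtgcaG
HCAR3: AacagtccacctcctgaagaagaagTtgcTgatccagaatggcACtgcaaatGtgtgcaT

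Both hydroxycarboxylic acid receptors rose with LPS from near the detection limit. HCAR2 stood at 38.1 CPM and 38.7 CPM in KO LPS BMS, 28.5 CPM and 31.3 CPM in KO LPS, 27.8 CPM and 23.2 CPM in WT LPS, 0.52 CPM, 0.17 CPM and 0.48 CPM in KO, and 0.11 CPM, 0.46 CPM and 0.77 CPM in WT. HCAR3 stood at 18.9 CPM and 14.03 CPM in KO LPS BMS, 18.6 CPM and 22.0 CPM in KO LPS, 18.5 CPM and 18.1 CPM in WT LPS, 0.0645 CPM, 0.50 CPM and 0.11 CPM in KO, and 0.22 CPM, 0.31 CPM and 0.41 CPM in WT. The 2 genotypes overlapped without LPS for both genes, and every library with LPS stood above every library without it. HCAR2 rose with LPS by 6.25 ± 0.25 in KO cells and by 5.79 ± 0.24 in WT cells, and HCAR3 by 6.41 ± 0.29 in KO cells and by 5.83 ± 0.27 in WT cells. These sizes rest on the few counts without LPS: the rise of HCAR3 in KO cells was 7.73 without KO replicate 2, which held 9 of its 12 KO counts, and that of HCAR2 in WT cells was 6.42 without WT replicate 3. Neither gene was called in KO against WT, in KO LPS against WT LPS or in the interaction.

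With the compound both genes stayed above KO, HCAR2 by 6.61 ± 0.25 and HCAR3 by 6.10 ± 0.30 (7.42 without KO replicate 2). In KO LPS BMS against KO LPS, HCAR2 changed by 0.36 ± 0.15 and HCAR3 by -0.31 ± 0.17, neither called. The libraries of HCAR2 did not overlap between these groups, whereas those of HCAR3 did, and HCAR2 was called higher with DESeq2 (0.40), with RLE factors, without the low-count filter and with only the groups compared in the fit. HCAR3 was called lower without KO LPS BMS replicate 1 (-0.53). Against WT LPS, HCAR2 was higher in KO LPS BMS by 0.59 ± 0.16, a call that was lost without WT LPS replicate 2. With the counts of both genes summed, the LPS rise was 6.33 ± 0.18 in KO cells and 5.82 ± 0.18 in WT cells, and KO LPS BMS against KO LPS gave 0.13 ± 0.12, not called.

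HCAR2 took a larger share of the summed counts with BMS. The share was 66.9% and 73.4% in KO LPS BMS, 60.5% and 58.7% in KO LPS, and 60.1% and 56.1% in WT LPS. Pooled over libraries it was 70.3% in KO LPS BMS (exact 95% interval 68.0 to 72.6), 59.6% in KO LPS (57.1 to 62.1) and 58.2% in WT LPS (55.5 to 60.8), and these intervals cover counting error only. Both BMS libraries lay above the other 4 with LPS, a difference that was not tested over libraries. Without LPS the sums were only 32 counts in KO and 44 counts in WT. The share there was 88.9%, 25% and 81.8% in the KO libraries and 33.3%, 60% and 65.2% in the WT libraries, with pooled counting intervals of 43.7% to 78.9% in KO and 43.3% to 73.7% in WT. The single libraries thus spread more widely than the pooled intervals, and no order is read from them. The sources used here do not say how shared reads were counted, and its part in the shares was not tested. HCAR1, the lactate receptor beside them, had 2 counts in all 12 libraries.

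**Figure D3:**
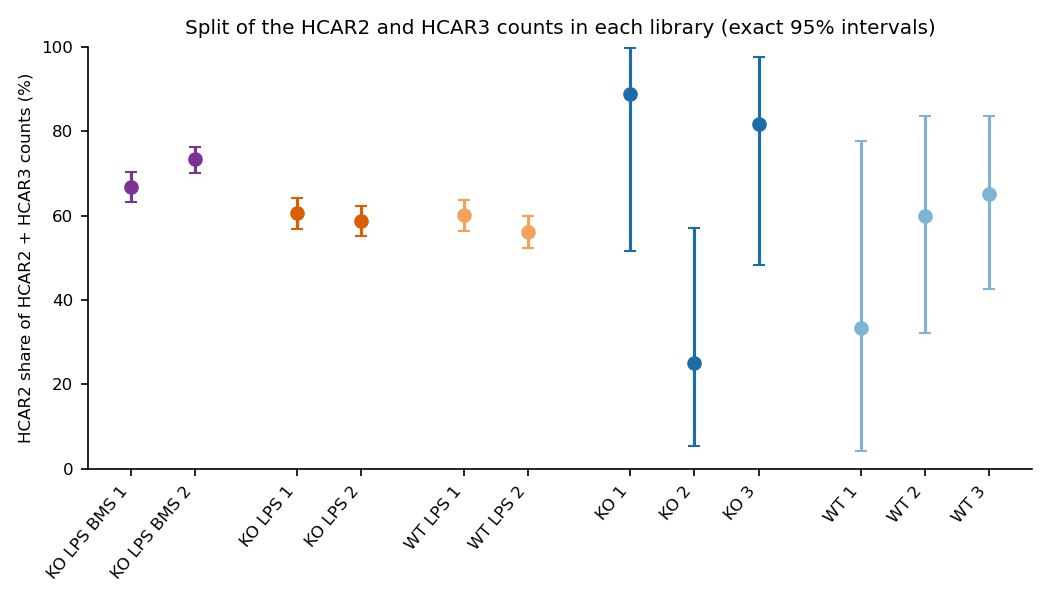
Share of HCAR2 in the summed counts of HCAR2 and HCAR3 (y axis, percent) for each library (x axis), with exact 95% intervals that cover counting error only. The KO LPS BMS libraries lie at 66.9% and 73.4%, above the 56.1% to 60.5% of the other LPS libraries, and the wide intervals of the KO and WT libraries come from 6 to 23 counts each.

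SUCNR1 (ENSG00000198829, chromosome 3, 151873643 to 151884619, plus strand), the succinate receptor, had the smallest fitted LPS change of the 6 in both genotypes. Its level was 61.3 CPM and 58.8 CPM in KO LPS BMS, 106 CPM and 96.9 CPM in KO LPS, 87.0 CPM and 101 CPM in WT LPS, 102 CPM, 97.5 CPM and 97.6 CPM in KO, and 81.7 CPM, 72.7 CPM and 74.8 CPM in WT. KO LPS, KO and WT LPS overlapped, WT lay below them, and KO LPS BMS lay below every other library. SUCNR1 was higher in KO than in WT by 0.38 ± 0.06 with vehicle, and its change was 0.11 ± 0.08 with LPS, not called. LPS raised it by 0.30 ± 0.07 in WT cells, a call lost without WT LPS replicate 2 (0.19) and with scaling by library size only (0.02). In KO cells the value was 0.04 ± 0.07, not called, and -0.22, called lower, with scaling by library size only. The difference between these changes, -0.27 ± 0.10, was not called, and was called without the low-count filter and without WT LPS replicate 1 or KO LPS replicate 1. With BMS it was lower by 0.76 ± 0.08 than in KO LPS, by 0.72 ± 0.07 than in KO and by 0.65 ± 0.08 than in WT LPS.

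Compared per length, in RPKM (CPM divided by exon length in kilobases), GPR84 was the most abundant of the 6 in every group. Its mean level was 71.5 RPKM in KO LPS BMS, 247.5 RPKM in KO LPS, 212 RPKM in WT LPS, 51.0 RPKM in KO and 26.4 RPKM in WT. SUCNR1 was next in 4 groups, at 24.3 RPKM in KO LPS, 22.5 RPKM in WT LPS, 23.7 RPKM in KO and 18.3 RPKM in WT. In KO LPS BMS it stood at 14.4 ± 0.418 RPKM, below HCAR2 at 18.7 ± 0.189 RPKM (SD, n = 2 each). With vehicle, FFAR4 ranked next, at 3.90 RPKM in KO and 3.20 RPKM in WT, and with LPS it was last, at 0.0159 to 0.197 RPKM in the 3 groups.

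RefSeq promoter windows on GRCh38.p14, from 250 bases before to 50 bases after the annotated start, were found for 3 of the 6 genes. These 3 windows are all that were found, and their part in the LPS changes was not tested. The capitals mark the single motif match, a C/EBP match on the plus strand at position -207 relative to the start of SUCNR1.
FFAR2 (chr19:35448007-35448306, plus strand): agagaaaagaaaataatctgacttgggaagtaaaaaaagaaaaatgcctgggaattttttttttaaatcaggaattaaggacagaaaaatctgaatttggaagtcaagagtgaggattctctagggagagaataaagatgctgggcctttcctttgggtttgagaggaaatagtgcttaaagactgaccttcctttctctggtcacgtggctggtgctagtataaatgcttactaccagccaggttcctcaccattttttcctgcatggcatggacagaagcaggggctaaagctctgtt
FFAR4 (chr10:93566415-93566714, plus strand): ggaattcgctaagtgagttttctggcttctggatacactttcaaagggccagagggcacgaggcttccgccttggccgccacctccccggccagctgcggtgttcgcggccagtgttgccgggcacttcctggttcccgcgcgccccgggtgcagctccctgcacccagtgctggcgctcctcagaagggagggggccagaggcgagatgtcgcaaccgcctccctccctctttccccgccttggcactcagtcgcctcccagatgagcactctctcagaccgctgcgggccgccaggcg
SUCNR1 (chr3:151873393-151873692, plus strand): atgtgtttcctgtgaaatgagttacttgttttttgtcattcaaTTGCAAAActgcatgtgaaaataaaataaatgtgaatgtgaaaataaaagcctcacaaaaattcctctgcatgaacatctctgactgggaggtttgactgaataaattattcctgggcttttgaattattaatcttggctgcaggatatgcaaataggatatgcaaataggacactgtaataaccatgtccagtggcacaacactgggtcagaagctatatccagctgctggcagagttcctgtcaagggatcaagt

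The motifs searched on both strands were AP-1 (TGANTCA), C/EBP (TTGCNNAA), PU.1 (GAGGAAGT), kappa B and MEF2, and no match lay in the windows of FFAR2 and FFAR4. Of all 35116 promoter windows, 7.71% held the AP-1 letters, 10.5% the C/EBP letters, 2.59% the PU.1 letters, 11.3% the kappa B motif and 0.572% the MEF2 motif. The FFAR4 window had a GC content of 67.0%, against 40.3% for FFAR2, 37.7% for SUCNR1 and a median of 58.7% over all windows. The GENCODE start of FFAR2 lies upstream of the RefSeq start, so another of its starts is not covered.

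Each receptor had its own set of genes with the most similar pattern. Likeness was the Pearson correlation of log2 CPM over the 12 libraries among 13495 genes with a mean of at least 1 CPM, and the libraries share their groups, so it is a description. FFAR2 was followed by RAPGEF3, which encodes a cyclic AMP-responsive exchange factor (r = 0.982), FLOT2, NCF1, ENO2 and SPHK1. NCF1, a subunit of the phagocyte NADPH oxidase, has near-identical copies and its counts are uncertain. GPR84 was followed by the sialic acid receptor SIGLEC9 (r = 0.995), STEAP4, FAM20A, RAB13 and RIN2. FFAR4 was followed by PLCG2, a phospholipase of microglial signalling (r = 0.995), the cholesterol exporter ABCG1, MAP3K3, SLC35F6 and TMIGD3. HCAR2 was followed by the kinase CAMKK2 (r = 0.990), PSMA6, the purinergic channel P2RX4, ARHGAP31 and ADM, and HCAR3 by GRAMD1A (r = 0.991), TNIP1, NFKB2, MCL1 and BMAL2. SUCNR1 was followed by the histone demethylase KDM1B (r = 0.973), ARL1, CDC14B, KL and PCMT1.

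The genes around the receptors did not share 1 direction. Within 200 kb of FFAR2, 12 of 30 annotated genes were tested, of which 3 were called higher and 3 lower in WT LPS against WT. One of them was HAMP, which encodes the iron hormone hepcidin: it rose with LPS by 2.04 in KO and by 2.99 in WT cells on the log2 scale, and fell by 2.31 with BMS. Around GPR84, 10 of 22 genes were tested, with 2 higher and 5 lower in WT LPS against WT. Around HCAR2, 8 of 16 were tested, with 3 higher, HCAR3 among them, and 1 lower. Around FFAR4, 5 of 9 were tested, with 2 higher and none lower, and none of the 6 genes around SUCNR1 was tested. Antisense and overlapping transcripts of GPR84, HCAR2, HCAR3 and SUCNR1 had 2 to 28 counts in all libraries together.

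Other receptors of the same kind also moved in these cells, in both directions. Of 16 further metabolite-sensing receptors, 10 were tested. In WT LPS against WT, 5 were called higher and 3 lower with a median log2 fold change of 0.16, against -0.07 over all genes tested. In KO LPS against KO, 5 were called higher and 2 lower (median 0.27, against -0.0041), in KO LPS BMS against KO LPS 2 higher and 4 lower (median -0.33, against -0.04), and in KO against WT 2 higher and 3 lower (median -0.10, against -0.02).

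FFAR3, which shares the short-chain fatty acid ligands of FFAR2, averaged 3.17 ± 0.753 CPM in KO LPS BMS, 4.72 ± 0.385 CPM in KO LPS and 2.78 ± 0.484 CPM in WT LPS (SD, n = 2 each), against 1.57 ± 0.244 CPM in KO and 0.938 ± 0.272 CPM in WT (SD, n = 3 each). It rose with LPS by 1.58 ± 0.24 in KO cells (adjusted p = 1.16e-05) and by 1.55 ± 0.28 in WT cells (adjusted p = 5.84e-05), and with BMS it changed by -0.59 ± 0.25, not called. Its counts are uncertain, since reads shared with GPR42 could be split. GPR132, a receptor for oxidised fatty acids in macrophages, rose with LPS by 1.83 ± 0.08 in KO cells (adjusted p = 1.24e-14) and by 1.68 ± 0.08 in WT cells (adjusted p = 2.11e-14). Its change with BMS was 0.06 ± 0.08, not called. GPBAR1, the bile acid receptor, fell with LPS by 2.27 ± 0.26 in KO cells (-2.27, adjusted p = 1.93e-07) and by 1.60 ± 0.34 in WT cells (-1.60, adjusted p = 0.00033). It was at most 5.70 CPM in any library and was higher in KO than in WT by 1.57 ± 0.20 (adjusted p = 2.23e-06).

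Receptors for oxysterols and protons had LPS changes that differed between the genotypes. GPR183, the receptor for oxysterols, fell with LPS by 0.18 ± 0.06 in KO cells (-0.18, adjusted p = 0.0256) and rose by 0.51 ± 0.06 in WT cells (adjusted p = 1.86e-07). The fall in KO cells was lost without KO replicate 1, KO replicate 2 or KO LPS replicate 2. GPR183 was lower in KO than in WT with vehicle (-0.63 ± 0.06, adjusted p = 1.37e-08). The genotype by LPS interaction was -0.68 ± 0.09 for GPR183 (adjusted p = 1.65e-05) and -0.41 ± 0.10 for the proton sensor GPR65 (adjusted p = 0.00821). The GPR65 interaction was lost without KO LPS replicate 2. With BMS, OXER1, the receptor for an oxidised eicosanoid, fell by 1.81 ± 0.31 against KO LPS (-1.81, adjusted p = 5.48e-05) and the proton sensor GPR4 by 1.31 ± 0.33 (-1.31, adjusted p = 0.00208). FFAR1, OXGR1, GPR31, GPR55 and GPR119 did not pass the filter on low counts, nor did HCAR1.

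**Figure D4:**
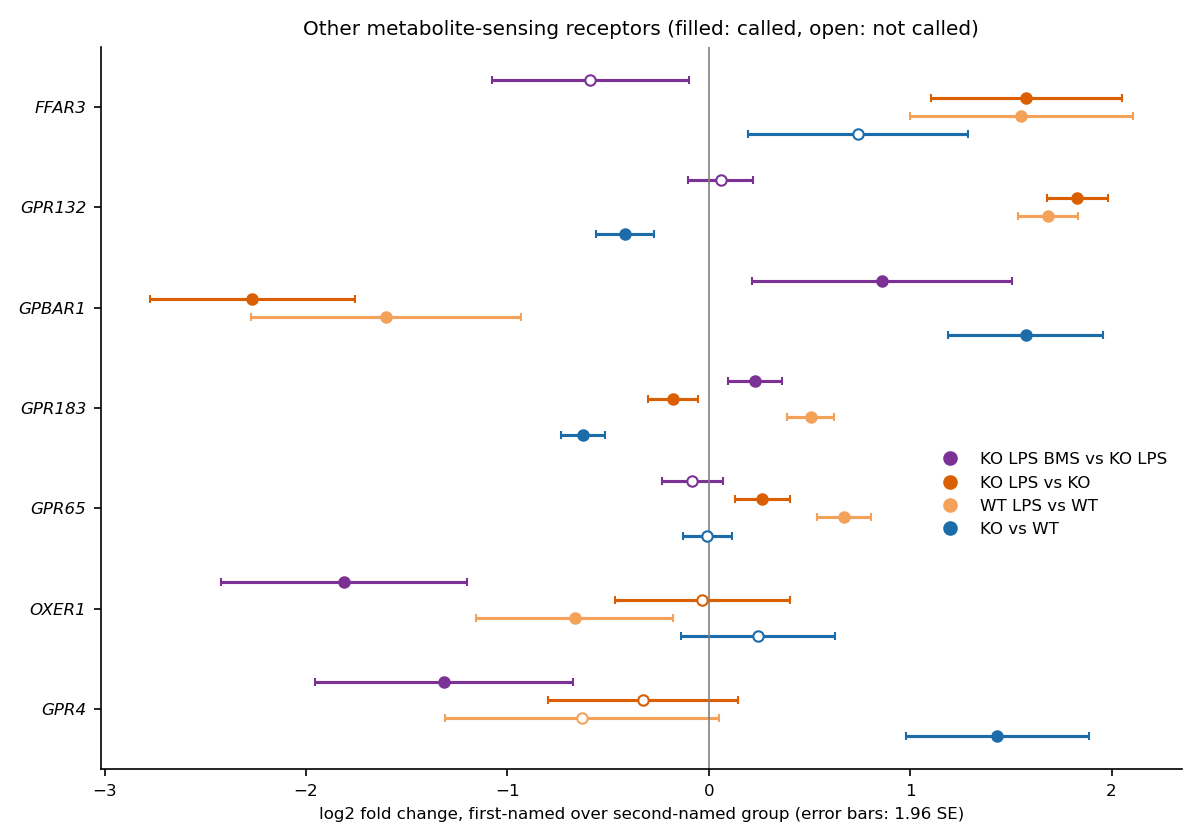
Log2 fold change (x axis, first-named over second-named group) of the 7 other metabolite-sensing receptors described by name (y axis) in 4 comparisons, with error bars for 95% intervals from the SE and filled points for calls over all genes. FFAR3 and GPR132 lie right of 0 with LPS in both genotypes, and GPBAR1 lies left of 0.

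Genes that make, use or carry the ligands moved unevenly with LPS. In the succinate list, 1 of 12 tested genes was higher and 3 lower in WT LPS against WT (median -0.01), and 2 were higher and 1 lower in KO LPS against KO (median -0.07). ACOD1, which makes itaconate, an inhibitor of succinate dehydrogenase, averaged 2.14 ± 1.21 CPM in KO LPS BMS, 24.5 ± 1.65 CPM in KO LPS and 46.6 ± 0.645 CPM in WT LPS (SD, n = 2 each), and had 2 counts in all KO and 1 count in all WT libraries. It was lower in KO LPS BMS than in KO LPS by 3.56 ± 0.21 (-3.56, adjusted p = 2.73e-11). SUCLG2, a subunit of succinyl-CoA ligase, fell with LPS by 0.42 ± 0.07 in KO cells (-0.42, adjusted p = 1.66e-05) and by 0.72 ± 0.07 in WT cells (-0.72, adjusted p = 5.08e-09). With BMS, 6 genes of the list were higher and 2 lower than in KO LPS (median 0.26), and SUCLG2 rose by 0.54 ± 0.07 (adjusted p = 2.39e-06).

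Mitochondrial fatty acid oxidation consumes the ligands of GPR84 and FFAR4. Its genes had calls in 1 direction with LPS and between KO and WT with vehicle. In KO LPS BMS against KO LPS the calls went mostly in the opposite direction, but against KO they were mostly lower. Of 14 genes tested, 0 were higher and 8 lower in WT LPS against WT (median -0.34), 0 higher and 6 lower in KO LPS against KO (median -0.18), and 0 higher and 7 lower in KO against WT (median -0.21). Over all genes tested, 59.7%, 44.8% and 21.6% were called in these comparisons, in that order. In KO LPS against WT LPS, 1 was higher and 3 were lower (median -0.01). CPT1A, the entry enzyme for long-chain fatty acids, averaged 11.2 ± 1.16 CPM in KO LPS BMS, 11.2 ± 0.326 CPM in KO LPS, 21.9 ± 0.929 CPM in WT LPS (SD, n = 2 each), 24.3 ± 1.48 CPM in KO and 58.4 ± 1.88 CPM in WT (SD, n = 3 each). With BMS, 6 genes were higher and 1 lower than in KO LPS (median 0.15), where 47.8% of all genes were called, and CPT1A changed by 0.01 ± 0.12, not called. Against KO, KO LPS BMS had 2 higher and 8 lower (median -0.30), where 62.7% of all genes were called. Of the genes of long-chain fatty acid uptake and release, 10 of 18 were higher and 5 lower in WT LPS against WT (median 0.37). ACSL1, which activates long-chain fatty acids, rose with LPS by 3.93 ± 0.05 in KO cells (adjusted p = 4.36e-24) and by 4.48 ± 0.05 in WT cells (adjusted p = 5.26e-25), and the lipase LPL by 1.57 ± 0.05 in KO cells (adjusted p = 4.87e-17) and by 2.47 ± 0.05 in WT cells (adjusted p = 1.04e-20).

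Of the ketone body genes, 0 of 5 were higher and 4 lower in WT LPS against WT (median -0.49), and 0 higher and 3 lower in KO LPS against KO (median -0.40). BDH1, the enzyme that interconverts beta-hydroxybutyrate and acetoacetate, fell with LPS by 1.52 ± 0.18 in KO cells (-1.52, adjusted p = 2.64e-07) and by 2.10 ± 0.18 in WT cells (-2.10, adjusted p = 9.62e-10). Among the short-chain acid genes, 2 of 7 were higher and 3 lower with LPS in either genotype. The monocarboxylate carrier SLC16A7 rose with LPS by 1.55 ± 0.16 in KO cells (adjusted p = 3.52e-08) and by 3.80 ± 0.17 in WT cells (adjusted p = 9.15e-15), an interaction of -2.25 ± 0.24 (adjusted p = 2.22e-06), and fell by 1.58 ± 0.18 with BMS (-1.58, adjusted p = 3.78e-07).

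Downstream of the receptors, 8 of 23 tested G protein and effector genes were higher and 10 lower in WT LPS against WT (median 0.03), and 9 were higher and 9 lower in KO LPS against KO (median -0.16). PDE4B, which degrades cyclic AMP, rose with LPS by 1.90 ± 0.06 in KO cells (adjusted p = 4.1e-17) and by 2.10 ± 0.06 in WT cells (adjusted p = 2.93e-18). PLCB2, a phospholipase C of the beta class, fell by 0.78 ± 0.06 in KO cells (-0.78, adjusted p = 1.75e-10) and by 1.51 ± 0.06 in WT cells (-1.51, adjusted p = 1.73e-15). Other genes of that class were called in both directions with LPS, in each genotype. Of 16 arrestins, receptor kinases and RGS proteins, which end receptor signals, 2 were higher and 10 lower in WT LPS against WT (median -0.39), and 1 higher and 7 lower in KO LPS against KO (median -0.27). RGS12 fell by 1.48 ± 0.07 in KO cells (-1.48, adjusted p = 1.56e-14) and by 2.15 ± 0.07 in WT cells (-2.15, adjusted p = 1.92e-17). With BMS, 5 of these 16 were higher and 9 lower than in KO LPS (median -0.46), and RGS2 fell by 1.73 ± 0.19 (-1.73, adjusted p = 5.22e-06).

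Another list held receptors of the ADORA and P2RY gene families, many but not all of which sense adenosine or nucleotides. Of 13 tested, 4 were higher and 7 lower in WT LPS against WT (median -0.66), and 3 higher and 7 lower in KO LPS against KO (median -0.50). The homeostatic microglial receptor P2RY12 averaged 5.70 ± 0.411 CPM in KO LPS BMS, 1.86 ± 0.110 CPM in KO LPS, 1.81 ± 0.169 CPM in WT LPS (SD, n = 2 each), 11.7 ± 0.887 CPM in KO and 15.1 ± 1.72 CPM in WT (SD, n = 3 each). It rose with BMS by 1.61 ± 0.22 against KO LPS (adjusted p = 2.74e-06), whereas P2RY13 fell by 1.72 ± 0.09 (-1.72, adjusted p = 1.15e-12).

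Several of the receptors are also known from neutrophils, monocytes, dendritic cells or adipocytes, and markers of these cells other than adipocytes moved with the groups. The summed level of 14 neutrophil markers was 177 to 181 CPM in KO LPS BMS, 156 to 171 CPM in KO LPS, 91.2 to 95.6 CPM in WT LPS, 193 to 200.5 CPM in KO and 126 to 130 CPM in WT, with ELANE, which encodes neutrophil elastase, at 0 in every library of 4 groups. Of 8 tested, 2 were higher and 3 lower with LPS in either genotype, 3 were higher and none lower in KO against WT, and 1 was higher and 3 lower with BMS. CSF3R made up most of each sum, at a mean of 156 CPM in KO LPS BMS and 130 CPM in KO LPS. It averaged 69.1 CPM in WT LPS, 157 CPM in KO and 96.9 CPM in WT. The summed level of 9 monocyte markers was 3562 to 3818 CPM in KO LPS BMS, 4021 to 4210 CPM in KO LPS, 3165 to 3278 CPM in WT LPS, 3358 to 3400 CPM in KO and 2354 to 2536 CPM in WT. Of these 9, 7 were higher and 1 lower in KO against WT, 5 higher and 1 lower in WT LPS against WT, 5 higher and 3 lower in KO LPS against KO, and 3 higher and 5 lower with BMS. LYZ and CD14 made up most of each monocyte sum, and both were called higher in KO against WT. With LPS neither was called in WT cells (-0.08 ± 0.06 and 0.24 ± 0.13). In KO cells LYZ was lower with LPS (-0.22 ± 0.06) and CD14 higher (0.37 ± 0.12). The monocyte sums were higher in KO than in WT and higher with LPS, as were FFAR2 and GPR84. The part of these markers in those results was not tested.

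SUCNR1 is also known from dendritic cells. The summed level of 8 dendritic cell markers was 149 to 158 CPM in KO LPS BMS, 116 CPM in both KO LPS libraries, 219 to 231 CPM in WT LPS, 159 to 169 CPM in KO and 478 to 511 CPM in WT, and 6 of these 8 genes were lower and none higher in KO against WT. The part of these markers in the result for SUCNR1 was not tested. The 7 mast cell and basophil markers summed to 987 to 1039 CPM in KO LPS BMS, 975 to 1044 CPM in KO LPS, 800 to 804 CPM in WT LPS, 914 to 964 CPM in KO and 763 to 819 CPM in WT. Of these 7, 6 were higher and none lower both in KO against WT and in KO LPS against WT LPS, as FFAR2 and GPR84 were, and their part in those results was not tested. The 6 endothelial markers summed to 469 to 476 CPM in KO LPS BMS, 307 to 343 CPM in KO LPS, 221 to 248 CPM in WT LPS, 560 to 593 CPM in KO and 509 to 542 CPM in WT, with CLDN5, a defining endothelial gene, at 0 in every library of 4 groups. Of 5 tested, 2 were higher and none lower in KO against WT, and 4 were higher and none lower in KO LPS against WT LPS. PECAM1 made up most of each sum, at a mean of 467 CPM in KO LPS BMS and 320 CPM in KO LPS. It averaged 233 CPM in WT LPS, 569 CPM in KO and 523 CPM in WT. Adipocyte markers summed to at most 0.215 CPM and markers of pluripotent cells to at most 0.618 CPM in any library, and none of either list was tested. ADIPOQ and LEP, which define adipocytes, were at 0 in all 12 libraries.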

How the data were processed

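The deposited table held whole-number read counts per Ensembl gene, not normalized, for 12 libraries that the labels call biological replicates, so p-values measure only the spread between these samples. Per the submitters' processing notes, CASAVA 1.7 and Cufflinks were used and the build was GRCh38; the sources used here do not give the aligner, the counter or its strand setting. Gene names, positions and exon lengths came from GENCODE release 29 on the same build.

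The members and all gene lists were chosen with earlier results of these data known. All 12 libraries, with one mean for each of the 5 groups, were fitted with edgeR 4.0.16 (R 4.3.3, quasi-likelihood test), TMM factors (0.872 to 1.117) and edgeR's filter on low counts, which left 16022 of 57992 genes. Benjamini-Hochberg adjustment ran over all of them, and calls were made at an adjusted p under 0.05. The fit was tested on simulated data. CPM and RPKM were computed from the counts. Besides the members, genes could be named if they were other metabolite-sensing receptors with a mean of at least 1 CPM in a group, or up to 2 called genes per direction with the lowest adjusted p in each list and comparison. MEF2C, the 5 genes most alike to each member and neighbours within 200 kb were named too. Marker genes near or at 0, markers that made up most of a sum and receptors that missed the filter were named after their values were seen. Alternatives were DESeq2 1.42.0, RLE factors, library size only, no filter, only the groups compared, a replicate block and each library left out. Results for 2 genes of the lists are not reported here.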

Additional observations from a re-analysis of the deposited data

Results flagged for a closer look

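The LPS change of GPR84 differed between the genotypes by -0.73 on the log2 scale (KO minus WT). GPR84 rose with LPS by 2.28 ± 0.06 in KO cells and by 3.00 ± 0.06 in WT cells, and the interaction term of the fit over all genes tested the difference between these rises. It kept its sign and its call in all 10 fits that left out 1 library, with values of -0.81 to -0.62. GPR84 was chosen with results of these data known, so this call and these fits are a description. The rise in KO cells was smaller as a ratio only. Mean levels were 104 CPM in KO and 506 CPM in KO LPS, against 54.0 CPM in WT and 433 CPM in WT LPS.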

How the results depend on the processing

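Of the values of the 6 receptors recomputed under the alternatives, 542 kept their direction and their side of the threshold, 10 lost the call, 12 gained one and 9 changed sign. SUCNR1 in KO LPS against KO turned to -0.22 with library size only and to -0.0047 without the low-count filter. That filter's absence gave 2 receptors called in the interaction instead of 1. With only the groups compared in the fit, KO LPS against WT LPS had 2660 genes called instead of 4900, and 1 receptor instead of 3. Leaving out 1 library at a time gave 3005 to 5549 genes and 1 to 2 receptors called in KO LPS against WT LPS, and 1162 to 3079 genes (1920 with all libraries) and 1 to 2 receptors in the interaction. Values near 0 changed sign in the same fits: HCAR2 ran from -0.67 to 0.40 in KO against WT and from -0.17 to 0.90 in the interaction, FFAR2 from -0.24 to 0.15 in KO LPS BMS against KO, HCAR3 from -0.39 to 0.047 in KO LPS BMS against WT LPS, and SUCNR1 from -0.068 to 0.10 in KO LPS against KO. The cause of these changes was not tested. Replicate numbers were treated as names only. After group means were removed, libraries of different groups with the same number correlated at -0.143 to 0.103, and those with other numbers at -0.103 to 0.143. In groups of 2 libraries the deviations mirror each other, so these values cannot show whether libraries shared a batch. The replicate block left the receptors called at 3 in KO LPS BMS against KO LPS and 6 in WT LPS against WT, and changed no receptor's call. Scaling by library size only shifted the median of all genes by -0.29 in WT LPS against WT, -0.25 in KO LPS against KO and -0.34 in KO LPS BMS against KO. It took the share of higher among all calls to 26.7% instead of 48.4%, 25.5% instead of 54.7% and 26.1% instead of 48.4% in these comparisons, and to 65.3% instead of 53.5% in the interaction, where RLE factors gave 43.5%. Counts of 1 to 15 limit FFAR4 with LPS and HCAR2 and HCAR3 without it.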
